A study of Mus musculus with 18 samples.

Results

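The Wnt ligands, their Frizzled receptors and the genes that tune both were followed through 3 cell populations of the embryonic mouse neocortex, with and without EPIREGULIN. Members were the rows of the count table whose symbol belonged to the families Wnt, Fzd, Sfrp, Dkk1 to Dkk4, Rspo, Lgr4 to Lgr6, Lrp5, Lrp6, Axin, Nkd, Lef1, Tcf7, Tcf7l1 and Tcf7l2. This rule used symbols and no measured value, though it was chosen with earlier results of these data known. It found 54 members among 55416 genes. They comprised 19 ligands, 10 Frizzled receptors, 2 co-receptors, 4 R-spondins, 3 Lgr receptors, 8 secreted inhibitors, 4 intracellular feedback proteins and 4 transcription factors.

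Wnt proteins are secreted lipid-modified ligands that bind a Frizzled receptor together with Lrp5 or Lrp6. In the canonical branch this stabilises beta-catenin, which then joins the TCF/LEF factors on DNA and switches them from repression to activation, and in other branches Frizzled receptors act on cell polarity and axon guidance. R-spondins bind Lgr receptors and spare Frizzled receptors from removal, while Sfrp and Dkk proteins are secreted antagonists, and Axin and Nkd proteins restrain the signal inside the cell. In the embryonic cortex the pathway is known for patterning by the cortical hem at the medial edge, for control of progenitor division, for neuron maturation and for the growth of brain vessels.

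RNA was sequenced from the neocortex of wild-type C57BL/6J embryos at E14.5. The Epi groups came from brain hemispheres kept under rotation for 24 hours with human recombinant EPIREGULIN at 50 ng/mL, a ligand of the EGF receptor family, and the Ctl groups from hemispheres kept in the same way without it. The cells isolated afterwards were radial glia (RG), the neural stem cells that line the ventricle, the intermediate progenitors that arise from them (IP), and neurons (N), by a method that the sources used here do not name. The groups were Epi RG, Ctl RG, Epi IP, Ctl IP, Epi N and Ctl N, each with 3 biological replicates, and all had been through the culture, so no group shows uncultured tissue. The labels do not say whether embryos were pooled or whether replicates came from separate litters.

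Library totals ran from 15.5 M to 34.2 M counts. Levels are in CPM, the counts of a gene per M counts of its library, scaled with TMM factors so that libraries of unequal depth can be set side by side, listed for replicates 1, 2 and 3 of a group, or given as mean ± SD (n = 3). The populations were checked against marker lists. The summed level of 8 RG markers was 3110 to 3913 CPM in the 6 RG libraries, 254 to 324 CPM in the IP libraries and 167 to 210.0 CPM in the N libraries. That of 8 neuronal markers was 350.5 to 406 CPM in RG, 9433 to 10490 CPM in IP and 8752 to 9579 CPM in N, so the IP libraries held neuronal RNA at the level of the N libraries. Eomes, the defining factor of intermediate progenitors, was at 13.9 to 22.4 CPM in RG, 81.9 to 149 CPM in IP and 6.45 to 13.3 CPM in N. The summed IP list overlapped between IP and N, although 5 of its 6 genes were lower in N than in IP in both cultures. The gene that was higher, Insm1, was at 212 to 346 CPM in N against 76.3 to 116.7 CPM in IP. Against RG, 3 of the 6 were higher in IP and 1 lower in Ctl cultures, and 2 and 1 in Epi cultures. Markers of Cajal-Retzius cells, early neurons of the cortical surface, peaked in IP, with 317 to 514 CPM against 12.3 to 16.5 CPM in RG and 49.9 to 78.3 CPM in N. Mural cell markers were highest in RG, at 89.2 to 105.5 CPM, against 4.06 to 10.7 CPM in IP and N. Notch3 was the main contributor, at 75.8 to 93.7 CPM in RG, followed by Pdgfrb at 10.1 to 14.4 CPM. The other listed genes, Rgs5 and Vtn, were at most 1.23 CPM in any library. The part of mural cells in the RG levels below was not tested. Endothelial markers summed to at most 12.6 CPM in any library, and 0 of 6 differed between populations. Interneuron markers summed to 8.27 to 23.2 CPM in RG, 114.8 to 221.5 CPM in IP and 11.1 to 162 CPM in N, and in Ctl cultures 6 of 8 were higher in IP than in RG, 6 higher in N than in RG and 2 lower in N than in IP. Erythroid markers summed to 8.68 to 24.4 CPM in RG, 11.7 to 36.2 CPM in IP and 20.8 to 133 CPM in N, and 3 of 4 were higher in N than in RG in both cultures. The part of either cell type in the levels below was not tested. The population names below are those of the labels. In bulk RNA of this kind, fewer cells of a type and less RNA per cell cannot be told apart.

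Promoter windows were read from RefSeq for 36 of the 54 members (build GRCm38.p6, 250 bases before to 50 bases after the start), and 3 are shown because the results turn on these genes. Tcf7l1 and Wnt7a, a repressor and a ligand that are both on chromosome 6, were high in RG and low in the other populations. Fzd1, a receptor on chromosome 5, was high in N. Each window is written 5′ to 3′ on the minus strand, where all 3 genes lie, with capitals for the letters CTTTGA, the core bound by TCF/LEF factors, or GTGGGAA, the core bound by RBPJ, on either strand.
Tcf7l1, chr6:72788996-72789295: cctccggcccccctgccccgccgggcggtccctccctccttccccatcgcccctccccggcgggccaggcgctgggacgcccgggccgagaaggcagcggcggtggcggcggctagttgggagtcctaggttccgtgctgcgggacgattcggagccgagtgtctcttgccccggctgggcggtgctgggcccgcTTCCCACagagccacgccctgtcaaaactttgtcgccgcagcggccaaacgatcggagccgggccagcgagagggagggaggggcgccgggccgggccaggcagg
Wnt7a, chr6:91411304-91411603: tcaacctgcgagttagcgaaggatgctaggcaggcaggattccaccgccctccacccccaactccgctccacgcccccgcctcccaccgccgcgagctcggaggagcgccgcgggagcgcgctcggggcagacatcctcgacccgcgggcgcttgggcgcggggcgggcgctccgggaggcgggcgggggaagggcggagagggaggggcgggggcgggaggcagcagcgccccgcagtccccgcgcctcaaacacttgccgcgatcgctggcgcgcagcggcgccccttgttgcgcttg
Fzd1, chr5:4758167-4758466: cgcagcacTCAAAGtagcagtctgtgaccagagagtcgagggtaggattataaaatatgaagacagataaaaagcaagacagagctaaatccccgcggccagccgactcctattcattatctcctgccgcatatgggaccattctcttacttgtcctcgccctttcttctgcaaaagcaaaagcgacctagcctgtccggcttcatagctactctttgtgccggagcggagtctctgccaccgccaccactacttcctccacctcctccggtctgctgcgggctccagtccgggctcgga
The Tcf7l1 window was 75.3% G or C and held the RBPJ letters read on the opposite strand, as TTCCCAC, beginning at position -55 from the start. The Wnt7a window was 76.0% G or C and held neither set of letters. The Fzd1 window was 54.0% G or C and held the TCF/LEF letters read on the opposite strand, as TCAAAG, beginning at position -242. The TCF/LEF letters occurred in 16.0% of 32851 promoter windows of this length and the RBPJ letters in 6.38%. Among the 36 members, the TCF/LEF letters were found in Lef1, Fzd1, Wnt5b, Wnt11 and Dkk1 and the RBPJ letters in Lef1, Tcf7l1 and Wnt9a. A match of letters is a description of the sequence and does not show binding.

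Of the 54 members, 29 reached a mean of 5 CPM in at least 1 group. The expressed members were mainly receptors and downstream genes, since 8 of 10 Frizzled receptors, both co-receptors, all 4 intracellular proteins and 3 of 4 transcription factors reached 5 CPM, but 5 of 19 ligands and 4 of 8 secreted inhibitors. Another 15 members never reached a group mean of 1 CPM, namely Wnt1, Wnt2, Wnt6, Wnt8a, Wnt9a, Wnt9b, Wnt10a, Wnt10b, Wnt11, Wnt16, Fzd10, Rspo4, Sfrp5, Dkk1 and Dkk2. The remaining 10, Wnt2b, Wnt3, Wnt3a, Wnt4, Fzd5, Rspo2, Lgr5, Lgr6, Dkk4 and Tcf7, peaked between 1 and 5 CPM. The filter on low counts kept 50 members and left out Wnt2, Wnt6, Wnt8a and Rspo4, whose group means were at most 0.382 CPM.

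The populations differed in most of the expressed members, mainly through lower levels outside RG. In Epi cultures 27 of 50 tested members differed between IP and RG at an edgeR adjusted p under 0.05, of which 7 were higher in IP and 20 lower, where 42.7% of all 29355 genes did (23.2% higher and 19.6% lower). In Ctl cultures 29 differed, 7 higher and 22 lower, where 41.3% of all genes did (22.7% higher and 18.6% lower), so the share lower in IP was larger among members than among all genes and the share higher in IP was smaller. The members' median log2 fold change in Ctl cultures was -0.52, against -0.06 over all genes. Between N and RG, 28 members differed in Epi cultures, 7 higher and 21 lower, where 39.7% of all genes did (21.4% higher and 18.3% lower), and 27 in Ctl cultures, 7 higher and 20 lower, where 38.7% of all genes did (21% higher and 17.7% lower). Between N and IP, 16 members differed in Epi cultures, 4 higher and 12 lower, where 11% of all genes did (2.8% higher and 8.16% lower). The same comparison in Ctl cultures also gave 16 members, 4 higher and 12 lower, where 10.3% of all genes did (2.6% higher and 7.74% lower). With upper-quartile scaling in place of TMM, the split between N and IP in Epi cultures became 7 higher and 9 lower, and the median of all genes moved to 0.14, against 0.04 with TMM. Members whose libraries did not overlap between the compared groups numbered 31 for IP and RG, 25 for N and IP and 32 for N and RG in Epi cultures, where 52.3%, 27.8% and 48.3% of all genes did not overlap. In Ctl cultures they numbered 31, 23 and 30, where 46.6%, 22.5% and 46.7% of all genes did not.

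The course over RG, IP and N in Ctl cultures fell into a few shapes. For 10 members, Wnt5b, Fzd4, Fzd6, Fzd9, Rspo1, Sfrp2, Sfrp4, Lrp5, Axin2 and Tcf7l2, the level was lower in both IP and N than in RG with no call between IP and N. For 6, Wnt7a, Wnt8b, Fzd7, Fzd8, Dkk3 and Tcf7l1, every step was lower. Fzd2 and Sfrp1 were lowest in IP, with N in between. Rspo3 and Nkd2 were highest in IP and Wnt5a and Wnt4 were higher in IP than in either neighbour, while Wnt7b and Fzd3 were higher in IP and N than in RG. Fzd1 and Lrp6 were highest in N. Wnt3a, Fzd5, Axin1 and Lef1 were lower in IP than in RG only, and Wnt3, Wnt9a, Rspo2, Lgr4 and Nkd1 had other combinations. The remaining 15 tested members, all but 5 of them with every group mean under 1 CPM, showed no call in any of the 3 comparisons.

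**Figure D1:**
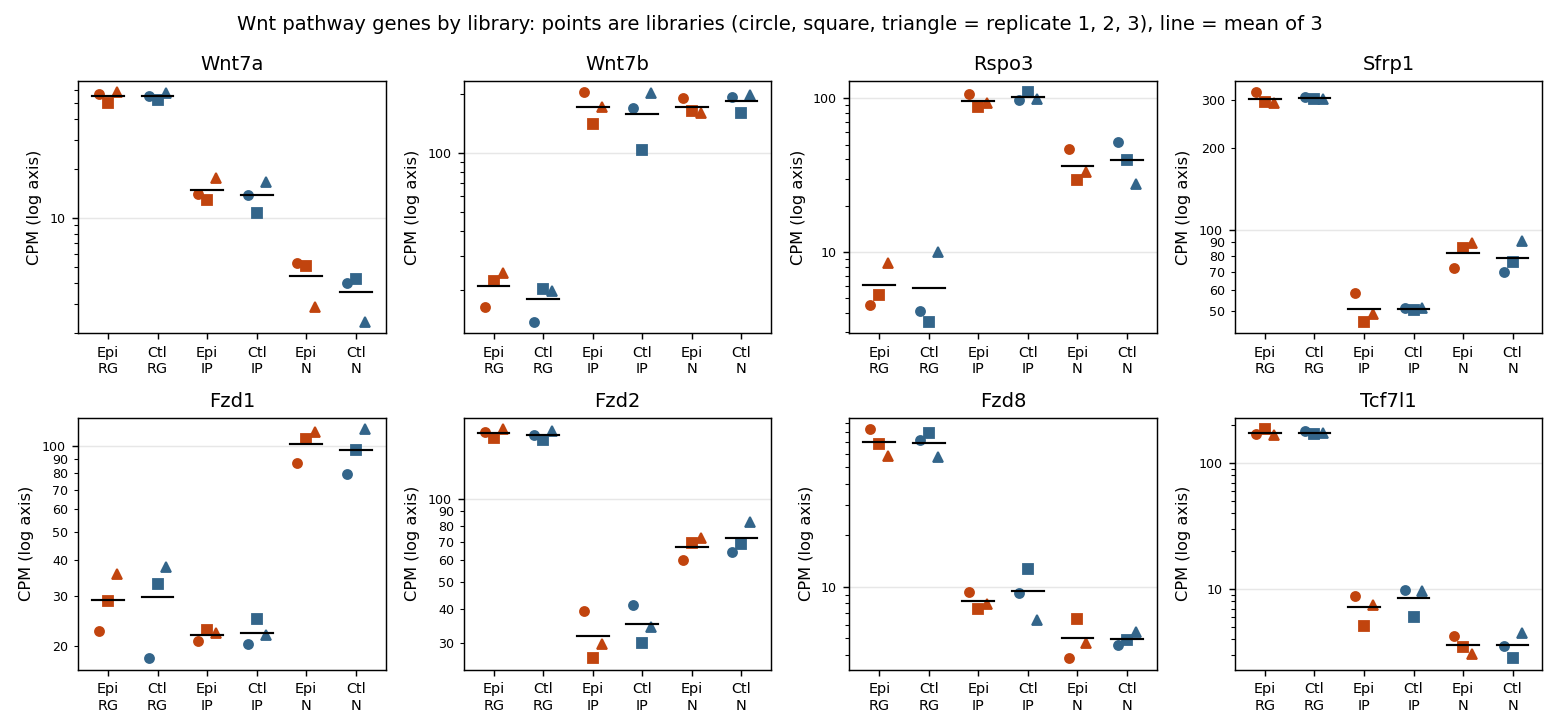
Level of 8 members in every library, in TMM-scaled CPM on a log axis, with the 6 groups along the horizontal axis, each treated group left of its control; a circle, square or triangle is replicate 1, 2 or 3 and a line the group mean. Wnt7a, Fzd8 and Tcf7l1 step down over RG, IP and N, Wnt7b and Rspo3 are low in RG, Fzd1 is high in N, and Epi and Ctl libraries of a population overlap.

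The main ligands divided into those high in RG and those high in IP and N. Wnt7a (ENSMUSG00000030093, chromosome 6, 91340963 to 91388345, minus strand on GRCm39), a canonical ligand that also acts on brain vessels, had 56.6, 50.5 and 58.1 CPM in Epi RG, 14, 12.8 and 17.4 CPM in Epi IP and 5.29, 5.09 and 2.85 CPM in Epi N. Wnt7a in Ctl cultures had 55.3, 52.3 and 58 CPM in RG, 13.8, 10.6 and 16.6 CPM in IP and 4.02, 4.27 and 2.33 CPM in N. The 3 populations did not overlap in either culture. The log2 fold change was -2.00 ± 0.21 (SE) for IP over RG and -1.97 ± 0.23 for N over IP in Ctl cultures (edgeR adjusted p = 3.04e-08 and 1.7e-06), so the ligand was lower again at the second step.

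Wnt7b (ENSMUSG00000022382, chromosome 15, 85419638 to 85466674, minus strand), a close relative of Wnt7a, ran the other way. It had 16.4, 22.4 and 24.5 CPM in Epi RG, 203, 139.5 and 171 CPM in Epi IP and 191, 164 and 159 CPM in Epi N. Wnt7b in Ctl cultures had 13.8, 20.3 and 19.9 CPM in RG, 168, 103.7 and 202 CPM in IP and 193, 159 and 196 CPM in N. All IP and N libraries lay above all RG libraries, and IP and N overlapped. In Ctl cultures the log2 fold change was 3.14 ± 0.22 for IP over RG (edgeR adjusted p = 5.53e-11) and 3.35 ± 0.22 for N over RG (adjusted p = 1.97e-11), while N over IP gave 0.21 (adjusted p = 0.637). Between RG and N the main ligand thus changed from Wnt7a to Wnt7b. Per kilobase of exon, Wnt7a made up 54.9% ± 4.97 of the summed ligand level in Epi RG and 57% ± 5.88 in Ctl RG, but 3.39% ± 0.891 in Epi N and 2.64% ± 0.92 in Ctl N. Wnt7b made up 13.4% ± 1.83 in Epi RG and 11.9% ± 2.36 in Ctl RG, but 85.2% ± 0.749 in Epi N and 86.2% ± 3.21 in Ctl N. The summed ligand level itself was 30.5 ± 2.6, 44.1 ± 6.08 and 39.2 ± 3.7 CPM per kb in Epi RG, IP and N and 29.7 ± 4.42, 42.1 ± 10.1 and 41.3 ± 3.5 CPM per kb in Ctl RG, IP and N, so the total was no lower outside RG while its main ligand changed.

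Wnt5a and Wnt5b are the classic non-canonical ligands. Wnt5a had 5.3, 7.23 and 9.96 CPM in Epi RG, 14.7, 19.9 and 17 CPM in Epi IP and 7.58, 5.93 and 4.33 CPM in Epi N. Wnt5a in Ctl cultures had 6.58, 7.09 and 8.21 CPM in RG, 14.48, 22.9 and 17.9 CPM in IP and 8.74, 8.04 and 5.23 CPM in N, so every IP library lay above every RG and N library. Its log2 fold change in Ctl cultures was 1.33 ± 0.25 for IP over RG (edgeR adjusted p = 0.000105) and -1.33 ± 0.25 for N over IP (adjusted p = 0.000623). Wnt5b moved in the opposite direction, with 3.35 ± 0.328 CPM in Epi IP against 8.07 ± 1.6 in Epi RG, and 4.0 ± 0.709 in Ctl IP against 7.86 ± 1.13 in Ctl RG, a log2 fold change of -0.97 ± 0.22 in Ctl cultures (adjusted p = 0.000771). It was also lower in N than in RG, at -0.75 in Epi cultures and -0.70 in Ctl cultures (adjusted p = 0.00659 and 0.0109). The Epi call ended without Epi RG replicate 3 (-0.57, adjusted p = 0.059), and the Ctl call without Ctl N replicate 1 (-0.57, adjusted p = 0.0747) or Ctl RG replicate 3 (-0.58, adjusted p = 0.0673). Reads from Wnt5b could not be told from those of Fbxl14 on the opposite strand over 21.8% of its exon length.

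Wnt8b, a ligand known from the cortical hem and the medial wall, had 11.8, 18 and 18.7 CPM in Epi RG, 1.99, 1.77 and 1.33 CPM in Epi IP and 1.1, 0.265 and 1.0 CPM in Epi N. Wnt8b in Ctl cultures had 9.57, 9.05 and 26.3 CPM in RG, 2.47, 3.18 and 2.83 CPM in IP and 1.03, 0.942 and 0.432 CPM in N. All RG libraries lay above all others, and Ctl RG replicate 3 stood far above its 2 companions. The log2 fold change was -2.42 ± 0.38 for IP over RG (edgeR adjusted p = 1.7e-05) and -4.24 ± 0.44 for N over RG (adjusted p = 4.25e-08) in Ctl cultures, and -1.72 and -3.54 without Ctl RG replicate 3. N over IP gave -1.12 in Epi cultures (adjusted p = 0.159) and -1.82 in Ctl cultures (adjusted p = 0.0101), and the Ctl call ended without Ctl N replicate 3 (-1.51, adjusted p = 0.0772). Ctl RG replicate 3 was also the highest RG library for Rspo1, Rspo2, Rspo3 and Wnt3a, a further ligand of the hem, at 2.88 CPM. Ttr, the defining gene of the choroid plexus next to the hem, was at 10.4 CPM in that library, 31.5 CPM in Ctl IP replicate 3 and 13.7 CPM in Ctl N replicate 3, and at most 7.17 CPM in the others. The summed list of 6 hem and choroid plexus markers was 12.9 to 21.5 CPM in Epi RG and 11.4 to 25.6 CPM in Ctl RG, and its part in these differences was not tested. With the 3 libraries above 10 CPM of Ttr left out, Wnt8b was still lower in IP and in N than in RG, at -1.73 and -3.22.

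Among weakly expressed ligands, Wnt3 and Wnt4 were higher in IP than in RG and Wnt3a was lower, each in both cultures. Wnt4 had 2.76 ± 0.636 CPM in Epi IP against 1.12 ± 0.344 in Epi RG, and 3.25 ± 1.08 in Ctl IP against 1.07 ± 0.227 in Ctl RG (edgeR adjusted p = 0.008 and 0.0022), and it was lower again in N. Wnt9a, with every group mean under 1 CPM, was lower in N than in RG. The other 7 tested ligands, Wnt1, Wnt2b, Wnt9b, Wnt10a, Wnt10b, Wnt11 and Wnt16, showed no call between populations in Ctl cultures.

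**Figure D2:**
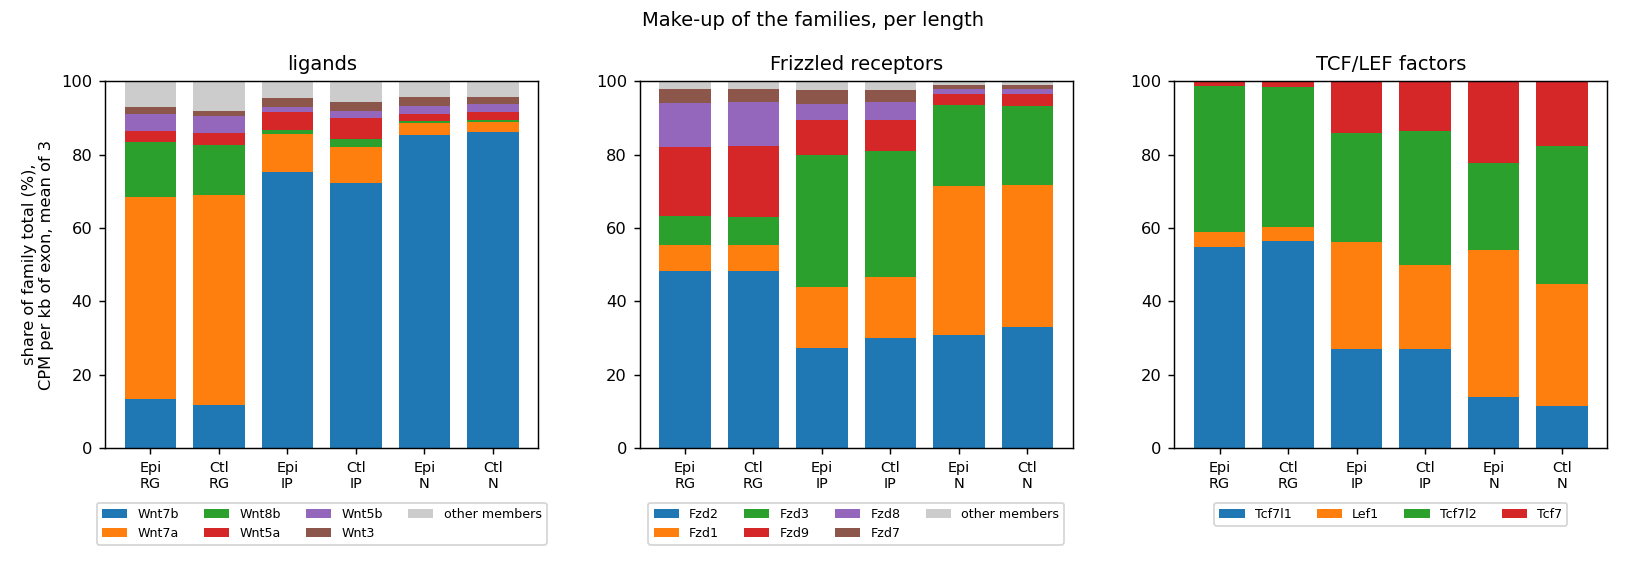
Share of each gene in the summed level of its family, per kilobase of exon and in percent, stacked for the ligands, the Frizzled receptors and the TCF/LEF factors, with 1 bar for the mean of each group and each Epi bar left of its Ctl bar. Wnt7a fills most of the RG ligand bars and Wnt7b most of those of IP and N, Fzd2 is largest in RG and Fzd1 in N, and Tcf7l1 gives way to other TCF/LEF factors outside RG.

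Most of the Frizzled receptors called against RG were lower in IP and N, while Fzd3 and, in N, Fzd1 were higher. Fzd2 (ENSMUSG00000050288, chromosome 11, 102495222 to 102498884, plus strand), which takes part in canonical and non-canonical signalling, had 174, 165 and 179 CPM in Epi RG, 39.2, 26.5 and 29.8 CPM in Epi IP and 59.9, 69.5 and 72.1 CPM in Epi N. Fzd2 in Ctl cultures had 171, 164 and 176 CPM in RG, 41.2, 30.2 and 34.4 CPM in IP and 64.2, 68.9 and 82.6 CPM in N. IP was the lowest population in both cultures, and no library of N overlapped with either neighbour. The log2 fold change was -2.27 ± 0.15 for IP over RG and 1.03 ± 0.14 for N over IP in Ctl cultures (edgeR adjusted p = 1.49e-11 and 2.06e-05).

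Fzd1 (ENSMUSG00000044674, chromosome 5, 4803839 to 4808035, minus strand), another receptor for canonical ligands, was highest in the N libraries. It had 22.6, 28.7 and 35.8 CPM in Epi RG, 20.7, 22.7 and 22.3 CPM in Epi IP and 86.8, 106 and 112 CPM in Epi N. Fzd1 in Ctl cultures had 18.1, 33 and 37.7 CPM in RG, 20.3, 24.8 and 21.8 CPM in IP and 79.9, 96.5 and 114 CPM in N. Every N library lay above every RG and IP library, with log2 fold changes of 2.12 ± 0.21 over IP and 1.71 ± 0.21 over RG in Ctl cultures (edgeR adjusted p = 2.83e-07 and 4.23e-07). IP over RG gave -0.41 without a call (adjusted p = 0.128), which became a call with the replicate number as a block (-0.36, adjusted p = 0.0308), as it did in Epi cultures (-0.38, adjusted p = 0.0223). The neuronal marker list, in contrast, was at like levels in N and IP. Per kilobase, Fzd1 made up 40.6% ± 1.2 of the Frizzled total in Epi N and 38.7% ± 2.02 in Ctl N, against 7.05% ± 1.23 in Epi RG and 7.2% ± 2.03 in Ctl RG, where Fzd2 led with 48.4% ± 2.27 and 48.2% ± 3.69.

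Fzd3, a receptor of the planar polarity branch needed for axon tracts, was the other Frizzled gene that was higher outside RG. It averaged 149 ± 1.58 CPM in Epi IP and 173 ± 12.2 in Epi N, against 101 ± 12.1 in Epi RG, and 145 ± 19.5 in Ctl IP and 168 ± 11.9 in Ctl N, against 98.7 ± 19.8 in Ctl RG. Its log2 fold change for IP over RG was 0.56 ± 0.14 in Epi cultures and 0.55 ± 0.14 in Ctl cultures (edgeR adjusted p = 0.00192 and 0.00204), a smaller change than those of the other called receptors. N and IP were not called different.

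Fzd8 and Fzd9, receptors known from neural progenitors, had their high levels in RG. Fzd8 had 83.2, 67.9 and 58 CPM in Epi RG, 9.3, 7.44 and 7.93 CPM in Epi IP and 3.83, 6.5 and 4.7 CPM in Epi N. Fzd8 in Ctl cultures had 71.5, 79.1 and 57.1 CPM in RG, 9.21, 12.7 and 6.43 CPM in IP and 4.58, 4.88 and 5.49 CPM in N, and its log2 fold change was -2.89 ± 0.22 for IP over RG (edgeR adjusted p = 1.9e-10). The further step to N was -0.71 ± 0.22 in Epi cultures (adjusted p = 0.0419), a call that ended without any 1 of the 3 Epi IP replicates or Epi N replicate 1 or 3 (-0.56 to -0.79, adjusted p 0.0606 to 0.198), with upper-quartile factors (-0.61, adjusted p = 0.115), with only the compared groups in the fit (-0.70, adjusted p = 0.055) and without the libraries with Gbx2 above 1 CPM (-0.79, adjusted p = 0.0728). In Ctl cultures it was -0.90 ± 0.23 (adjusted p = 0.00946), a call that ended without Ctl IP replicate 2 (-0.65, adjusted p = 0.0776), with only the compared groups (-0.90, adjusted p = 0.0505) and without the libraries high in Gbx2 (-0.87, adjusted p = 0.0894). Fzd9 averaged 42.5 ± 11 CPM in Epi RG and 42.5 ± 8.51 in Ctl RG, 6.96 ± 0.693 in Epi IP and 6.19 ± 0.739 in Ctl IP, and 4.02 ± 0.298 in Epi N and 4.5 ± 0.602 in Ctl N, with a log2 fold change of -2.78 ± 0.19 for IP over RG in Ctl cultures (adjusted p = 4.03e-11).

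Fzd7, Fzd4 and Fzd6 followed the same direction at lower levels. Fzd7, a canonical receptor of stem cells, averaged 7.0 ± 0.629 CPM in Epi IP and 3.71 ± 0.80 in Epi N, against 21.2 ± 4.91 in Epi RG, and 6.44 ± 1.6 in Ctl IP and 3.24 ± 0.263 in Ctl N, against 20.7 ± 5.22 in Ctl RG. IP over RG gave -1.68 ± 0.22 in Ctl cultures (edgeR adjusted p = 1.48e-06). N over IP gave -0.92 in Epi cultures and -0.99 in Ctl cultures (adjusted p = 0.00971 and 0.0069). The Epi call ended without Epi N replicate 1 (-0.80, adjusted p = 0.0625) and the Ctl call without Ctl IP replicate 3 (-0.79, adjusted p = 0.0623). Fzd4, the Norrin receptor of vessels, was lower in IP and N than in RG, with N over RG at -1.64 in Epi cultures, and -2.28 without Epi N replicate 1, and at -1.35 in Ctl cultures. Fzd6, a planar polarity receptor, gave -2.60 for IP over RG and -3.18 for N over RG in Ctl cultures, the second becoming -3.85 without Ctl N replicate 3. Genes of the opposite strand share 13.3% of the exon length of Fzd6 and 12% of that of Fzd7. The Frizzled total per kilobase was 97.7 ± 7.79, 31.5 ± 2.11 and 59.5 ± 5.94 CPM per kb in Epi RG, IP and N and 96.7 ± 8.0, 32 ± 1.1 and 59.4 ± 7.64 CPM per kb in Ctl RG, IP and N, so it was lowest in IP.

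The 2 co-receptors differed from each other. Lrp6, the main co-receptor of the canonical branch, averaged 75.7 ± 3.22, 72.4 ± 3.92 and 99.6 ± 11.4 CPM in Epi RG, IP and N and 75.6 ± 6.77, 72.7 ± 4.76 and 96.4 ± 8.56 CPM in Ctl RG, IP and N. IP over RG gave -0.06 in Ctl cultures (95% interval -0.29 to 0.18), and N was higher than IP, at 0.46 ± 0.11 in Epi cultures and 0.41 ± 0.11 in Ctl cultures (edgeR adjusted p = 0.00766 and 0.0201). The Epi call ended without Epi IP replicate 1 or 2 or Epi N replicate 2 (0.39 to 0.45, adjusted p 0.0507 to 0.0749), and the Ctl call without Ctl IP replicate 1 or Ctl N replicate 2 or 3 (0.34 to 0.41, adjusted p 0.066 to 0.14). The Ctl call also ended with RLE factors (0.37, adjusted p = 0.0677), with no filter (0.39, adjusted p = 0.0867), with only the compared groups (0.42, adjusted p = 0.0682) and without the libraries high in Ttr or in Gbx2 (0.37 and 0.40, adjusted p = 0.161 and 0.122). N over RG was 0.40 in Epi cultures, a call that ended without Epi N replicate 2 (0.33, adjusted p = 0.0527). In Ctl cultures it was 0.35, a call that ended with DESeq2, RLE factors or only the compared groups (each 0.30, adjusted p = 0.0591, 0.0621 and 0.0567), without the libraries high in Ttr (0.35, adjusted p = 0.0671) and without Ctl N replicate 3 or Ctl RG replicate 1 (adjusted p = 0.0871 and 0.084). Lrp5 was lower in IP and N than in RG, at -0.91 and -0.80 on the log2 scale in Ctl cultures (adjusted p = 0.000997 and 0.00314), at 7.05 ± 0.532, 3.77 ± 0.752 and 4.03 ± 0.92 CPM in Ctl RG, IP and N.

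Rspo3 (ENSMUSG00000019880, chromosome 10, 29328412 to 29411863, minus strand), an R-spondin that amplifies Wnt signals, showed the largest rise of any member between IP and RG. It had 4.53, 5.26 and 8.51 CPM in Epi RG, 106, 87.8 and 93.3 CPM in Epi IP and 46.5, 29.5 and 33.2 CPM in Epi N. Rspo3 in Ctl cultures had 4.12, 3.52 and 9.96 CPM in RG, 97.9, 109 and 99.2 CPM in IP and 51.7, 39.5 and 27.8 CPM in N. The 3 populations did not overlap, with IP at the top and N between. In Ctl cultures the log2 fold change was 4.10 ± 0.32 for IP over RG, -1.36 ± 0.28 for N over IP and 2.73 ± 0.30 for N over RG (edgeR adjusted p = 3.08e-10, 0.0016 and 1.12e-07). Without Ctl RG replicate 3, which had the highest RG level, the first and the last became 4.74 and 3.37. The Cajal-Retzius list peaked in the same population as Rspo3, Wnt5a and Nkd2, with all 8 of its genes higher in IP than in RG and 7 of 8 lower in N than in IP in Ctl cultures. Reln, the secreted protein that defines those cells, was at 4.41 to 5.68 CPM in Ctl RG, 199 to 241 CPM in Ctl IP and 18.7 to 40.6 CPM in Ctl N, and the part of these cells in the 3 members was not tested.

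Rspo1, another R-spondin, had 5.36, 6.17 and 7.07 CPM in Epi RG, 0.796, 1.24 and 1.78 CPM in Epi IP and 0.176, 0.84 and 0.211 CPM in Epi N. Rspo1 in Ctl cultures had 4.68, 4.19 and 10.4 CPM in RG, 1.12, 1.39 and 0.762 CPM in IP and 0.701, 0.554 and 0.259 CPM in N, so it was highest in RG, the reverse of Rspo3. IP over RG was -2.59 ± 0.43 in Ctl cultures (edgeR adjusted p = 2.97e-05) and -2.04 without Ctl RG replicate 3, and N over RG was -3.68 and -3.13 without it. In Epi cultures N over RG was -3.88, and -4.98 without Epi N replicate 2, in which it was highest among Epi N. Rspo2 was lower in N than in RG, at -2.17 ± 0.49 in Ctl cultures (adjusted p = 0.000932), and lower in IP than in RG with the replicate block alone (-0.97, adjusted p = 0.0276). Per kilobase Rspo3 was 96.9% ± 1.02 of the R-spondin total in Epi IP and 97.3% ± 0.334 in Ctl IP, whereas Rspo1 was the larger share in RG, with 58.8% ± 4.42 in Epi RG and 58.8% ± 1.09 in Ctl RG.

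Of the R-spondin receptors, Lgr4 alone reached 5 CPM, with 5.91 ± 0.591, 6.17 ± 0.175 and 3.97 ± 0.396 CPM in Epi RG, IP and N and 5.63 ± 1.13, 6.88 ± 0.416 and 4.29 ± 0.786 CPM in Ctl RG, IP and N. It was called lower in N than in IP, at -0.64 in Epi cultures and -0.68 in Ctl cultures (edgeR adjusted p = 0.0393 and 0.0287). The Epi call ended without any 1 of the 6 libraries (-0.56 to -0.70, adjusted p 0.0671 to 0.158), and the Ctl call without Ctl IP replicate 2 or 3 or Ctl N replicate 2 or 3 (-0.59 to -0.69, adjusted p 0.0634 to 0.131). The call of N against RG in Epi cultures, -0.58, ended without Epi N replicate 1 or Epi RG replicate 1 or 3 (adjusted p 0.0574 to 0.103). Lgr5 and Lgr6 stayed under 5 CPM with no call.

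The secreted inhibitors that reached 5 CPM were highest in RG. Sfrp1 (ENSMUSG00000031548, chromosome 8, 23901518 to 23939648, plus strand), a Frizzled-related protein that binds Wnts, made up most of their level per kilobase. It had 320.4, 296 and 294 CPM in Epi RG, 58.4, 45.8 and 49.1 CPM in Epi IP and 72.2, 85.7 and 89 CPM in Epi N. Sfrp1 in Ctl cultures had 307, 304 and 303 CPM in RG, 51.2, 50.3 and 51.6 CPM in IP and 69.8, 75.7 and 90.8 CPM in N. As with Fzd2, IP was lowest and N between, without overlap. The log2 fold change was -2.58 ± 0.12 for IP over RG and 0.63 ± 0.12 for N over IP in Ctl cultures (edgeR adjusted p = 9.51e-14 and 0.000684).

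Sfrp2, a relative of Sfrp1, averaged 4.0 ± 0.698 CPM in Epi IP and 2.09 ± 0.353 in Epi N, against 48.7 ± 16.4 in Epi RG, and 4.03 ± 0.285 in Ctl IP and 2.6 ± 0.153 in Ctl N, against 45 ± 11.8 in Ctl RG. Its log2 fold change for IP over RG was -3.48 ± 0.24 in Ctl cultures (edgeR adjusted p = 3.37e-11), and 21.0% of its exon length overlaps a gene on the other strand. N over IP was called in Epi cultures (-0.94, adjusted p = 0.0175), a call that ended without Epi IP replicate 2 or 3 or Epi N replicate 1 or 2 (adjusted p 0.0506 to 0.1), and in Ctl cultures only with the replicate block (-0.64, adjusted p = 0.0371). Dkk3, a divergent member of the Dickkopf family, averaged 21.9 ± 6.66, 7.47 ± 2.76 and 2.92 ± 0.50 CPM in Ctl RG, IP and N, with -1.57 for IP over RG and -1.34 for N over IP (adjusted p = 1.95e-05 and 0.00147). Sfrp4 was lower in IP than in RG, at -2.02 (adjusted p = 1.13e-05). Dkk1, Dkk2, Dkk4 and Sfrp5 had no call in Ctl cultures, though with the block Dkk1, under 1 CPM, was lower in N than in IP (adjusted p = 0.0361). The total of the secreted inhibitors per kilobase was 15.7 ± 1.32 CPM per kb in Epi IP and 20.9 ± 2.08 in Epi N, against 90 ± 4.97 in Epi RG, and 15.6 ± 0.816 in Ctl IP and 20.3 ± 1.92 in Ctl N, against 88.7 ± 5.56 in Ctl RG.

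**Figure D3:**
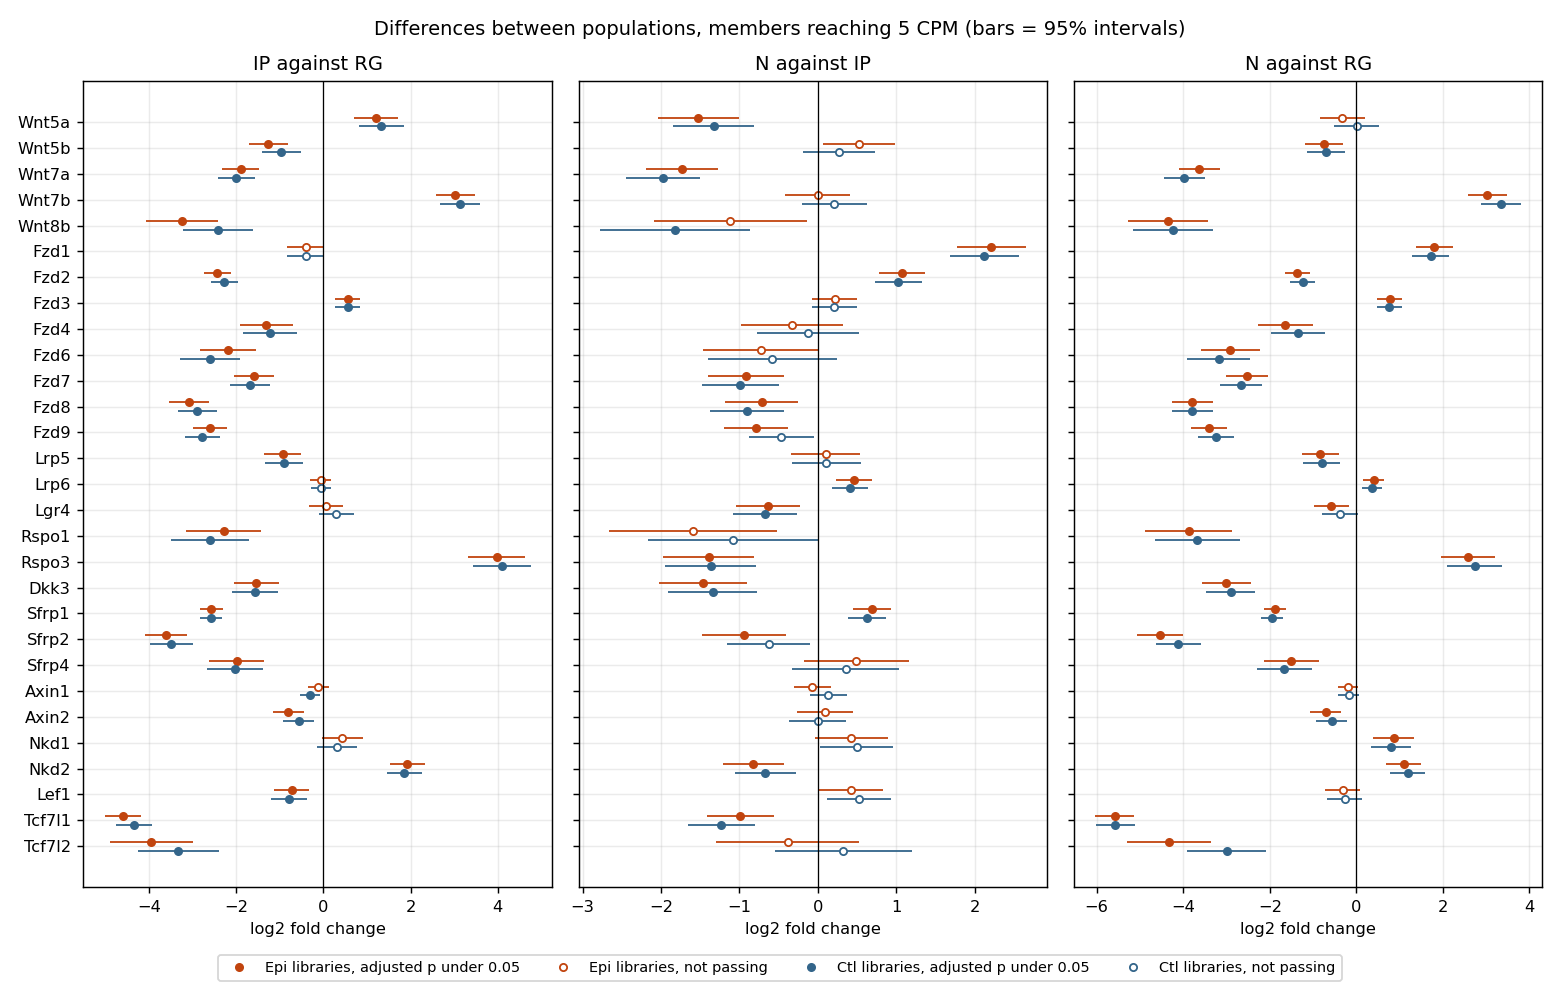
Log2 fold change with 95% interval for the 29 members that reached 5 CPM, in 3 panels for IP over RG, N over IP and N over RG, with Epi and Ctl cultures drawn apart; a filled point passed an adjusted p under 0.05. Most filled points lie left of 0 in the IP over RG and N over RG panels, Rspo3 and Wnt7b lie far to the right there, and Fzd1 leads the N over IP panel.

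Of the 4 intracellular members, Axin2, a direct target of beta-catenin that feeds back as an inhibitor, averaged 18.2 ± 0.515, 10.5 ± 2.09 and 11.1 ± 1.86 CPM in Epi RG, IP and N and 17.9 ± 2.57, 12.1 ± 0.784 and 12 ± 1.65 CPM in Ctl RG, IP and N. IP over RG was -0.80 ± 0.17 in Epi cultures and -0.57 ± 0.17 in Ctl cultures (edgeR adjusted p = 0.000516 and 0.00989), and N over RG was -0.71 and -0.57. Both Ctl calls ended without Ctl RG replicate 2 (-0.49 and -0.50, adjusted p = 0.0554 and 0.0536), and the N over RG call also without Ctl N replicate 2 (-0.46, adjusted p = 0.0716). Axin1, the scaffold of the complex that destroys beta-catenin, gave -0.11 for IP over RG in Epi cultures, with no call (adjusted p = 0.465), and -0.31 in Ctl cultures, with a call (adjusted p = 0.0312). The Ctl call ended without Ctl IP replicate 1 or 2 or Ctl RG replicate 2 or 3 (adjusted p 0.0616 to 0.127) and with no filter or only the compared groups in the fit (adjusted p = 0.188 and 0.094).

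Nkd2, which binds Dishevelled, was the intracellular member that changed most. It had 4.45, 3.89 and 5.52 CPM in Epi RG, 17.5, 18.9 and 16.3 CPM in Epi IP and 9.96, 10.8 and 8.87 CPM in Epi N. Nkd2 in Ctl cultures had 4.99, 2.79 and 4.93 CPM in RG, 15.8, 14.7 and 16.4 CPM in IP and 9.58, 8.93 and 11 CPM in N, again with IP at the top. IP over RG was 1.86 ± 0.20 in Ctl cultures (edgeR adjusted p = 4.42e-08), and N over IP was -0.67 ± 0.19 (adjusted p = 0.0223), a call that ended without Ctl IP replicate 1 or 3 or Ctl N replicate 1 or 2 (adjusted p 0.0547 to 0.0967). Nkd1 was higher in N than in RG, by 0.81 ± 0.22 (adjusted p = 0.00587), at 31.1 ± 7.31 CPM in Ctl N against 17.8 ± 3.77 in Ctl RG. With the block, Nkd1 was also higher in IP than in RG and in N than in IP (0.30 and 0.49 in Ctl cultures, adjusted p = 0.0496 and 0.00669).

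The TCF/LEF factors held the steepest difference among the members. Tcf7l1 (ENSMUSG00000055799, chromosome 6, 72603361 to 72766237, minus strand), which acts mainly as a repressor of Wnt targets and is known from stem cells, had 169, 185 and 167 CPM in Epi RG, 8.83, 5.14 and 7.48 CPM in Epi IP and 4.23, 3.49 and 3.06 CPM in Epi N. Tcf7l1 in Ctl cultures had 179.5, 169.8 and 174 CPM in RG, 9.77, 5.95 and 9.73 CPM in IP and 3.55, 2.83 and 4.49 CPM in N. No library overlapped between populations in either culture. The log2 fold change was -4.34 ± 0.20 for IP over RG, -1.23 ± 0.21 for N over IP and -5.57 ± 0.22 for N over RG in Ctl cultures (edgeR adjusted p = 5e-14, 0.000179 and 2.82e-15), the largest change of any member.

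Tcf7l2 (ENSMUSG00000024985, chromosome 19, 55730252 to 55922086, plus strand), which activates or represses Wnt targets and is a known marker of the thalamus, had 237, 195 and 214 CPM in Epi RG, 9.01, 21.1 and 12 CPM in Epi IP and 10.7, 10.2 and 11.2 CPM in Epi N. Tcf7l2 in Ctl cultures had 194, 200.8 and 209 CPM in RG, 30.9, 16.2 and 13 CPM in IP and 53.2, 10.5 and 11.6 CPM in N. Replicate 1 of Ctl N stood far above every other N library, and replicate 1 of Ctl IP above every other IP library. IP over RG was -3.33 ± 0.44 and N over RG -3.00 ± 0.44 in Ctl cultures (edgeR adjusted p = 1.64e-06 and 5.75e-06), and the second became -4.18 without Ctl N replicate 1. Gbx2, a factor of the developing thalamus looked up after the values of Tcf7l2 were seen, was at 3.27 CPM in Ctl N replicate 1, 1.11 CPM in Epi IP replicate 2, 1.08 CPM in Ctl IP replicate 1 and at most 0.554 CPM elsewhere. These 3 libraries were also the highest of their groups for Tcf7l2. Of the 10 genes of the thalamus list that holds Gbx2, drawn up with the data in view, 5 (Gbx2, Lhx9, Zic1, Zic4 and Cdh6) were highest of the Ctl N libraries in replicate 1 and 5 (Rora, Prox1, Slc17a6, Calb2 and Lhx2) lowest there. The summed list was 494 CPM in that library, against 545 and 694 CPM in Ctl N replicates 2 and 3. Whether tissue beyond the cortex has a part in it was not tested. N over RG was -4.18 in Ctl cultures without the 3 libraries.

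Lef1, an activator of Wnt targets, was the most even of the expressed factors. It had 19.2, 24.8 and 26 CPM in Epi RG, 12.8, 14.1 and 15.3 CPM in Epi IP and 15.3, 19.9 and 21.2 CPM in Epi N. Lef1 in Ctl cultures had 17.8, 20.2 and 27.4 CPM in RG, 10.2, 10.7 and 16.6 CPM in IP and 16.4, 17.8 and 19.9 CPM in N. IP over RG was -0.80 ± 0.20 in Ctl cultures (edgeR adjusted p = 0.00209), while N over IP gave 0.52 (adjusted p = 0.112), which the replicate block turned into a call (0.54, adjusted p = 0.0029). N over RG was called in Epi cultures only with the block (-0.31, adjusted p = 0.0321), and was not called in Ctl cultures (-0.27). The antisense gene Lef1os1 shares 16.3% of its exon length. Tcf7 stayed under 5 CPM with no call in Ctl cultures.

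Per kilobase, the summed TCF/LEF level was 5.17 ± 0.413 CPM per kb in Epi IP and 5.01 ± 0.335 in Epi N, against 60.8 ± 0.967 in Epi RG, and 5.99 ± 1.13 in Ctl IP and 6.46 ± 2.52 in Ctl N, against 59.3 ± 1.4 in Ctl RG. Tcf7l1 made up 54.8% ± 3.2 of it in Epi RG and 56.4% ± 1.86 in Ctl RG, and 13.9% ± 3.05 in Epi N and 11.7% ± 4.52 in Ctl N. Lef1 made up 4.12% ± 0.697 in Epi RG and 3.93% ± 0.818 in Ctl RG, and 40% ± 5.03 in Epi N and 33.1% ± 12.4 in Ctl N. The wide spread in Ctl N goes with replicate 1, where Tcf7l2 was at 53.2 CPM, against 10.5 and 11.6 CPM in replicates 2 and 3. Shares and totals were not tested between Epi and Ctl cultures. The share of Lef1 was larger outside RG although its level was not higher there, since Tcf7l1 and Tcf7l2 were lower.

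**Figure D4:**
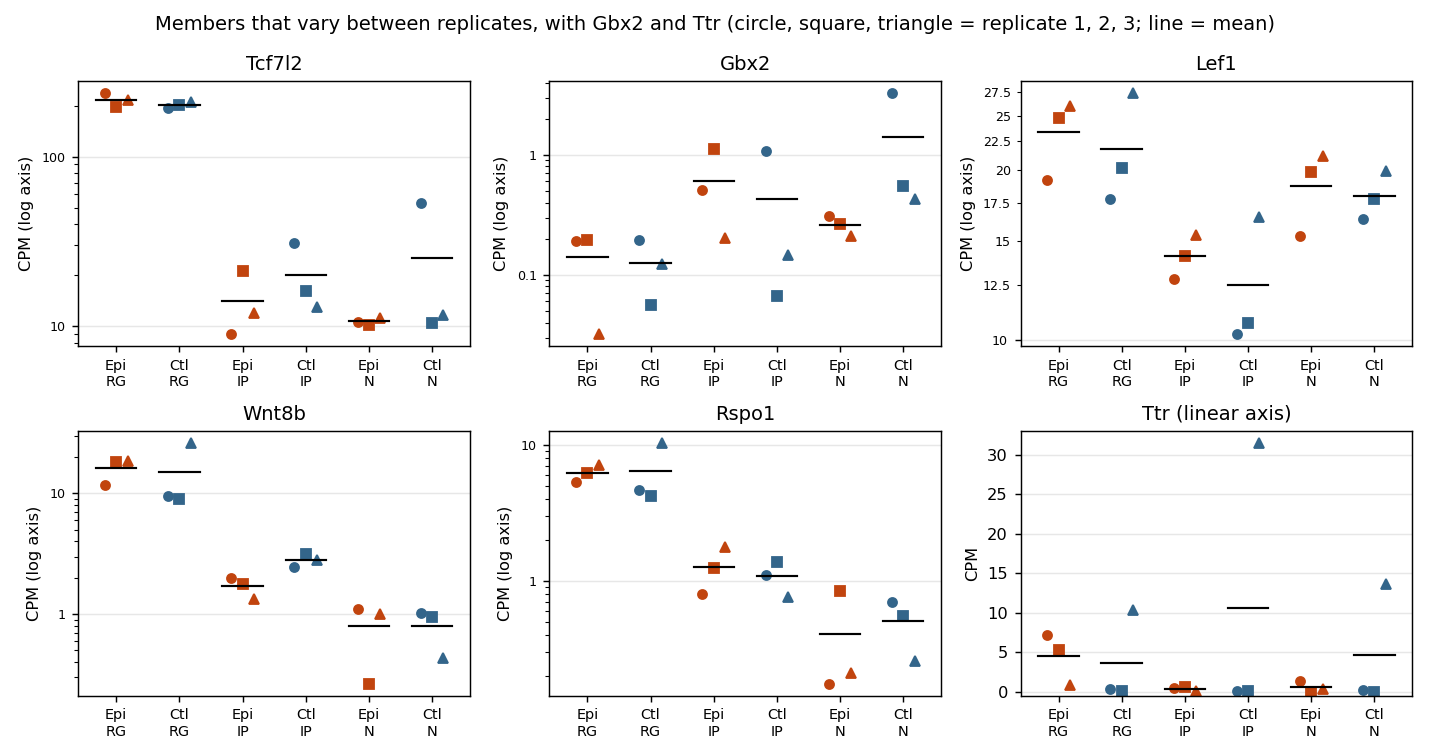
Level of Tcf7l2, Gbx2, Lef1, Wnt8b, Rspo1 and Ttr in every library, in TMM-scaled CPM on log axes except for Ttr, which is on a linear axis, with the 6 groups along the horizontal axis and symbols for replicates 1, 2 and 3. Ctl N replicate 1 is highest among N for both Tcf7l2 and Gbx2, and Ctl RG replicate 3 is highest among RG for Wnt8b, Rspo1 and Ttr.

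The population differences were read in Epi and Ctl cultures from separate libraries, although all came from the same fit. Between IP and RG, 27 members were called in both cultures, which is 100% of the Epi calls and 93.1% of the Ctl calls, with Fzd5 and Axin1 called in Ctl cultures alone. Between N and IP, 14 were called in both, 87.5% of each, with Fzd9 and Sfrp2 called in Epi cultures alone and Wnt8b and Wnt9a in Ctl cultures alone. Between N and RG, 27 were called in both, 96.4% of the Epi calls and 100% of the Ctl calls, with Lgr4 called in Epi cultures alone. All shared calls had the same direction. The matching shares over all genes are not given here, so this agreement is not shown to be particular to the members. A call in 1 culture alone does not show a difference between cultures, and the tests of that difference follow.

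EPIREGULIN changed no member past the threshold. For Epi against Ctl, edgeR called 0 of 50 tested members in RG, IP or N, in the mean over the 3 populations, or in any of the 3 differences of the effect between populations, and it called 0% of 29355 genes in each of these comparisons. DESeq2 also called 0. At an unadjusted p under 0.05, edgeR gave 0 members in RG, 0 in IP and 1 in N, where 478, 535 and 752 of all genes passed. It gave 3 members in the mean over populations, where 841 of all genes passed, and 0, 0 and 1 in the differences for IP minus RG, N minus IP and N minus RG, where 442, 512 and 478 of all genes passed. Each of these gene counts is below a share of 0.05 of the 29355 genes, the share that a calibrated test passes when nothing differs. The reason was not tested.

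The intervals show how large an effect the main fit, which has no replicate block, could have missed. Intervals with the block are not given. In RG, all 29 members that reached 5 CPM had a 95% interval within a 2-fold change in either direction, with log2 fold changes of -0.06 to 0.23. The same held for 25 of 29 in IP, with log2 fold changes of -0.72 to 0.63, and for 25 of 29 in N, with -1.23 to 0.49. The median log2 fold change of the tested members was 0.016 in RG, -0.016 in IP and -0.016 in N, against 0.014, 0.005 and 0.005 over all genes. The interval in RG was -0.25 to 0.23 for Sfrp1, -0.41 to 0.40 for Wnt7a, -0.36 to 0.35 for Tcf7l1 and -0.32 to 0.38 for Axin2. In IP it was -0.66 to 0.47 for Rspo3 and -0.30 to 0.53 for Wnt7b, and in N it was -0.35 to 0.48 for Fzd1.

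**Figure D5:**
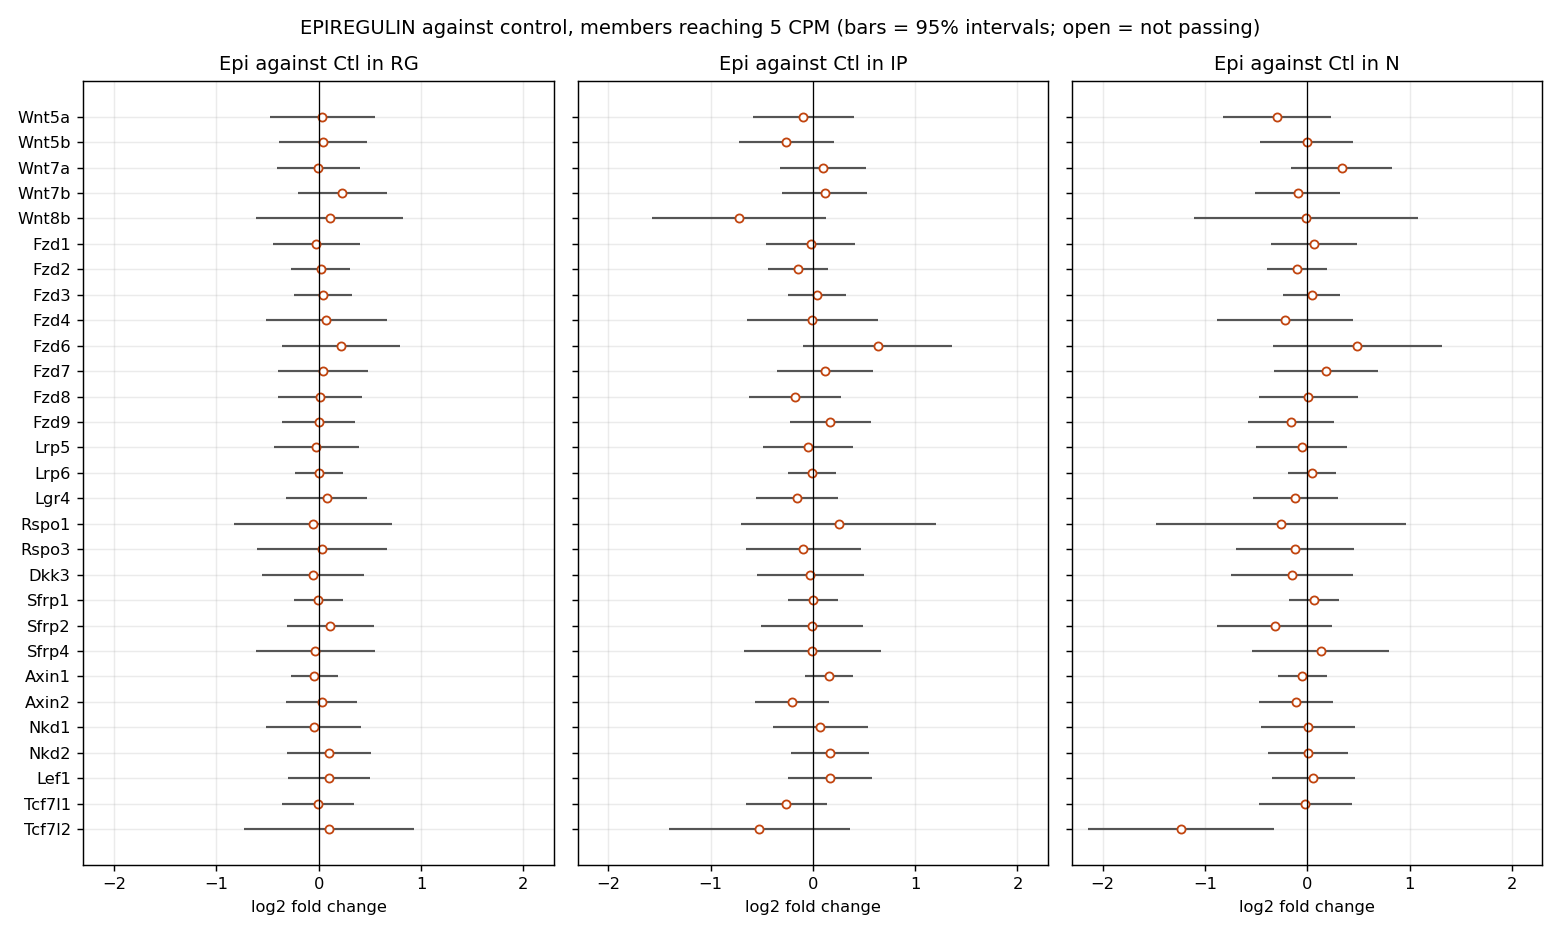
Log2 fold change of Epi over Ctl with 95% interval for the 29 members that reached 5 CPM, in panels for RG, IP and N. The points of RG lie between -0.06 and 0.23 and no point in any panel passed an adjusted p under 0.05, the farthest from 0 being Tcf7l2 in N.

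The members with the smallest unadjusted p did not pass and were mostly weakly expressed. In RG they were Wnt10a (-0.91 ± 0.52), Dkk2 (-0.70 ± 0.62), Wnt7b (0.23 ± 0.21), Lgr5 (-0.30 ± 0.34) and Tcf7 (-0.17 ± 0.20), given as log2 fold change ± SE. In IP they were Fzd6 (0.63 ± 0.35), Lgr6 (-0.60 ± 0.34), Wnt8b (-0.72 ± 0.41), Wnt1 (-1.23 ± 0.73) and Lgr5 (-0.51 ± 0.36). In N they were Tcf7l2 (-1.23 ± 0.44), Dkk1 (1.34 ± 0.79), Wnt7a (0.34 ± 0.24), Wnt1 (-0.93 ± 0.71) and Fzd6 (0.49 ± 0.40). Over the 3 populations, Tcf7l2 (-0.55 ± 0.24), Fzd6 (0.45 ± 0.20), Wnt1 (-0.90 ± 0.41), Lgr5 (-0.38 ± 0.20) and Wnt3a (-0.38 ± 0.30) came first, and the adjusted p was 1 for each.

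Tcf7l2 in N had the smallest unadjusted p of any member in the 3 populations, with a 95% interval of -2.14 to -0.33. The Epi N libraries, at 10.7, 10.2 and 11.2 CPM, overlapped with the Ctl N libraries, at 53.2, 10.5 and 11.6 CPM, and without Ctl N replicate 1 the log2 fold change was -0.05. The difference of the EPIREGULIN effect between N and IP for Tcf7l2 was -0.71 and turned to 0.47 without that library. Fzd6 in IP had 1.01, 0.9748 and 1.42 CPM in Epi and 0.837, 0.794 and 0.581 CPM in Ctl, with all Epi libraries above all Ctl libraries and few counts behind each value. Members whose 3 Epi and 3 Ctl libraries did not overlap were 0 in RG, where 5.42% of all genes did not, 4 in IP (Fzd6 and Axin1 above, Wnt8b and Lgr4 below), where 5.33% did not, and 2 in N (Dkk1 above, Sfrp2 below), where 6.86% did not.

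Other genes of the pathway were read from 5 lists. Of 16 genes of the destruction complex and Dishevelled, 10 were called for IP over RG in Ctl cultures, all but 1 of them higher, where 41.3% of all genes were called and 22.7% were higher, and the list's median log2 fold change was 0.50, against -0.06 over all genes. Apc2, a brain form of the scaffold Apc, was at 550.0 ± 159 CPM in Ctl IP against 25.1 ± 7.12 CPM in Ctl RG, a log2 fold change of 4.45, and Apc itself gave 2.08 and Csnk1e, a casein kinase, 1.67. None of the 16 was called between N and IP in Ctl cultures, where 10.3% of all genes were. With the replicate block 6 were, and over all genes the block raised the calls from 3035 to 4652. Of 12 nuclear partners of beta-catenin, 8 were called for IP over RG in Ctl cultures, 7 of them higher. This stands beside 41.3% of all genes called and 22.7% higher, and the list's median was 0.57. The repressors Tle2 and Tle4 gave 4.39 and 2.89, Pygo1 gave 1.03, and Tle3 was lower, at -1.09. Tle4, at 52.7 ± 0.69 CPM in Ctl N against 210.1 ± 43.2 CPM in Ctl IP, was lower in N than in IP (-1.99).

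Of 20 tested genes for Wnt secretion and extracellular control, 13 were called for IP over RG, 4 higher and 9 lower, where 41.3% of all genes were called, 22.7% higher and 18.6% lower, and the list's median was -0.41. Porcn, which adds the lipid to Wnt proteins, was higher at 121 ± 22.6 CPM in Ctl IP against 21.4 ± 3.04 CPM in Ctl RG (2.50), as was Draxin (1.63), while the glypican Gpc3 (-4.41) and the Frizzled partner Tspan12 (-2.29) were lower. Between N and IP 4 of these were called, where 10.3% of all genes were. With the replicate block 7 were, and over all genes the calls rose from 3035 to 4652. Of 17 tested genes of the non-canonical branch, 13 were called for IP over RG, 6 higher and 7 lower, again beside 41.3% of all genes. Celsr3, a polarity cadherin, gave 5.06 and Prickle2 3.64, whereas Daam2 gave -4.0. Prickle1, at 8.30 ± 3.21 CPM in Ctl N against 49.7 ± 6.82 CPM in Ctl IP, was lower in N than in IP (-2.59).

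Of 19 tested genes reported elsewhere as targets of beta-catenin, 13 were called for IP over RG in Ctl cultures, 4 higher and 9 lower, around a median of -0.58, where 41.3% of all genes were called, 22.7% higher and 18.6% lower. For N over RG 16 were called, 4 higher and 12 lower, where 38.7% of all genes were, 21% higher and 17.7% lower. Ccnd1, a cyclin, was lower at 7.50 ± 1.55 CPM in Ctl IP against 28.1 ± 2.62 CPM in Ctl RG (-1.90), and Tnfrsf19 was lower (-1.52). Myc, at 33.1 ± 3.56 CPM in Ctl IP against 5.6 ± 1.1 CPM in Ctl RG (2.57), and Id2 (3.75) were higher, so the targets did not share 1 direction. Axin2 and Lef1, the members most often read as targets, gave -0.57 and -0.80 for IP over RG. EPIREGULIN gave no call in any of the 5 lists.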

How the data were processed

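Raw read counts per gene, deposited by the authors as 1 table with a column for each of 18 libraries, were the only measurement used. Per the labels' protocols, RNA came from the Quick-RNA FFPE MiniPrep kit and libraries from SmartSeq2, which keeps no strand and has no molecular identifiers, so PCR copies count as reads and overlapping genes of opposite strands cannot be told apart. The submitters' processing notes name bcl2fastq 2.20.0, cutadapt 2.6 and featureCounts 2.0.1 with GRCm39, and an aligner is not given in these notes. The header words for strand and gene type stood exchanged and were set right from the values. The 92 spike-in rows were left out of library sizes and tests. Replicates differed by more than sampling noise (smallest chi-square per gene 9.60).

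Counts were analysed in R 4.3.3. filterByExpr of edgeR 4.0.16 with 6 groups kept 29355 genes, libraries were scaled by TMM, and 1 quasi-likelihood model with a mean per group was fitted to all 18. P-values are two-sided and Benjamini-Hochberg adjusted over all genes kept, with a threshold of 0.05, and measure only the spread between these samples. Log2 fold changes are ± SE. Levels per kilobase divide CPM by the exon length of each gene in GENCODE. Its release differs from the annotation of the count table, and for many members, such as Fzd7, the gene span is not the same in both. Family shares, family totals and percentages of shared exon length rest on these GENCODE lengths. The fit was also run on simulated counts that were drawn independently for each library. That run cannot show how the fit handles the correlation between same-numbered libraries described below. The members and the gene lists were chosen with earlier results of these data known. Values are given for members called between populations that reached 5 CPM without overlap of the libraries. For some, such as Fzd4, Fzd6 and Sfrp4, these are log2 fold changes without levels, and for Dkk3 they are those of Ctl cultures. For treatment the 5 members of smallest p are named.

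Alternatives were DESeq2 1.42.0, upper-quartile and RLE scaling, no filter on low counts, only the compared groups in the fit, a replicate block and each library left out. Leaving out the libraries with Ttr above 10 CPM or Gbx2 above 1 CPM was decided with the data in view. What a shared replicate number means is not stated in the labels. In their deviations from the group means over 11399 genes, same-numbered libraries of the compared groups correlated at 0.104 to 0.679, and other pairs at -0.653 to 0.117. The main fit nevertheless has no term for the replicate number, so its SE, intervals and adjusted p are unpaired. Pairing by number enters only as the replicate block, whose values are given where it changed a call.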

Additional observations from a re-analysis of the deposited data

How the results depend on the processing

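The counts of members called between populations stayed within 1.5 times of the reported ones under every alternative run. Leaving out each library in turn gave 25 to 31 members between IP and RG in Ctl cultures and 25 to 27 in Epi cultures, 11 to 14 and 12 to 14 between N and IP, and 26 to 29 and 26 to 28 between N and RG. With the replicate block, members called between IP and RG, N and IP, and N and RG numbered 30, 21 and 30 in Epi cultures and 32, 20 and 27 in Ctl cultures. The block raised the calls over all 29355 genes as well. In Epi cultures they rose from 12540 to 14261 for IP over RG and from 11663 to 13443 for N over RG. In Ctl cultures they rose from 12122 to 13911 and from 11365 to 13140, and the N over IP counts follow below. The block ended no member's call, and those it added and the text does not yet give were Rspo1 (-1.57), Wnt5b (0.52), Lef1 (0.41), Nkd1 (0.41) and Tcf7 (0.61) for N over IP in Epi cultures, Nkd1 (0.46) and Rspo2 (-0.97) for IP over RG there, and Wnt3 (0.92) for N over RG there. Over all genes the N over IP count in Epi cultures was 3216, and 4917 with the block, and in Ctl cultures 3035, and 4652 with the block and 1915 without the libraries high in Ttr. Upper-quartile factors changed the split of all genes for N over IP to 1477 higher and 1954 lower in Epi cultures, from 822 and 2394 with TMM, and to 1157 and 1961 in Ctl cultures, from 762 and 2273. They moved the median of all genes for IP over RG to -0.18 in both cultures. Lists with few calls between N and IP in Ctl cultures moved most. The destruction complex list, with 0 calls, had 1 with DESeq2, 1 with upper-quartile factors, 6 with the block and 0 to 1 with 1 library left out. The list of reported targets, with 4, had 1 with only the compared groups in the fit, 2 without the libraries high in Ttr, 2 without those high in Gbx2 and 2 to 5 with 1 library left out. The secretion list, with 4, had 7 with the block and 1 without the libraries high in Ttr. The difference of the EPIREGULIN effect on Tcf7l2 between N and IP, -0.71, was -1.19 to 0.47 with 1 library left out, with 0.47 without Ctl N replicate 1, and 0.42 without the libraries high in Gbx2, and the cause was not tested. The count of 0 treatment calls held under each alternative. Single members' calls that ended under a setting not named beside them were as follows. Without the libraries high in Gbx2 these were N over IP for Nkd2 in Ctl cultures and for Sfrp2 and Lgr4 in Epi cultures (adjusted p = 0.147, 0.0724 and 0.0947), N over RG for Wnt5b in Ctl cultures (0.0825) and IP over RG for Axin1 and Axin2 in Ctl cultures (0.0984 and 0.0572). Without the libraries high in Ttr these were, in Ctl cultures, N over IP for Fzd7, Nkd2 and Lgr4 (0.101, 0.0839 and 0.194), IP over RG for Axin1 and Axin2 (0.101 and 0.106) and N over RG for Axin2 (0.0587), and in Epi cultures N over IP for Lgr4 (0.0536). Lgr4 also lost N over IP with no filter (0.0771 in Epi and 0.0649 in Ctl cultures), with upper-quartile factors (0.081 and 0.0505) and, in Ctl cultures, with only the compared groups (0.107), and it lost N over RG in Epi cultures with no filter (0.0695). Members with every group mean under 1 CPM rest on few counts.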
